A study of Homo sapiens with 2 samples.

Results

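The 6 genes grouped here as luminal epithelial and trefoil genes were TFF1, TFF3, S100A14, EPCAM, MAL2 and SFN. The name is a label only, and SFN is also counted below with squamous differentiation genes. The 6 were followed by symbol through a table of RNA-seq values from the human breast cancer line MDA-MB-231. They are 6 of the 2046 genes in the table, and all 6 were found there. The knockout cells are TAMER-/- and the wild-type cells TAMER+/+, both of that line. TAMER is taken here as TMEM25, the gene that the series design names as knocked out. Both cultures were grown in the same serum-containing medium. Each genotype had 1 library, so no difference below has a replicate check, no test across samples was possible, and the intervals given cover counting error only. The sources used here do not say how the knockout was made or whether the cells are 1 clone. By its title the series asks how EGFR monomers switch on the transcription factor STAT3 in triple-negative breast cancer.

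The table holds only genes that reach a deposited knockout to wild-type ratio of 2 and a knockout value of 1. The 6 genes were selected on these deposited values, being higher in knockout cells, and so the size of their ratios is a description and carries no test. Genes that were alike or lower in knockout cells were not analysed here, and neither was TMEM25 itself, so the labels could not be checked on the targeted gene. The listed genes together held 4138956 reads from knockout cells and 1046999 reads from wild-type cells, which is part of each library and not its depth. MDA-MB-231 is known as a triple-negative line with mesenchymal features and little EPCAM. Of 10 markers fixed for such a line, including VIM, CD44, AXL and ZEB1, 1 was in the table, PLAU, a urokinase, at 1.46 in knockout cells against 0.58 in wild-type cells. The other 9 were not analysed here, so the identity of the line could not be checked on them. EPCAM, at 145.74 in wild-type cells, goes against what the line is known for.

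Trefoil factors are small secreted peptides that travel with mucins and protect mucosal surfaces. Each carries a compact trefoil fold held together by disulfide bonds. TFF1 is a classical estrogen receptor target in breast cancer cells, and TFF3 is co-expressed with it in luminal tumours. EPCAM is a cell adhesion protein of simple epithelia, MAL2 is a membrane protein needed for transport of cargo to the apical surface of polarised cells, S100A14 is a calcium-binding S100 protein of epithelia, and SFN (stratifin) is an adaptor protein of epithelial cells that p53 induces and that holds the cell cycle before mitosis.

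No stretch of 50 bases of a protein-coding TFF1, TFF3, S100A14 or SFN transcript was found in a transcript of another gene. The same search of the GENCODE 29 transcripts found 1.883% of such stretches of EPCAM in AC093840.1 and 3.555% of those of MAL2 in MAL2-AS1, which overlaps MAL2 on the opposite strand. The sources used here do not say whether counting used strand, so reads of MAL2 and MAL2-AS1 cannot be told apart where they overlap.

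The 6 genes fell into a nearly silent and an abundant class by their wild-type value, with 5 as the limit, in the deposited expression unit, which is scaled for gene length and depth but not named as FPKM or TPM. TFF1 (0.94), S100A14 (1.63) and TFF3 (3.68) were under 5 in wild-type cells, as were 59.7% of all listed genes. TFF3 was the nearest under the limit and SFN (69.09) the nearest over it, with EPCAM at 145.74 and MAL2 at 105.63. With a limit of 1 in place of 5 only TFF1 of the 6 was nearly silent. In bulk RNA, more cells that make a transcript and more of that transcript per cell cannot be told apart.

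TFF1 had a value of 5920.2 in knockout cells and 0.94 in wild-type cells. These rested on 50724 reads in knockout cells against 7 in wild-type cells. The knockout value was the highest of all 2046 genes, ahead of the next at 4486.8, while the wild-type value ranked 1388th. The log2(value + 1) ratio was 11.58, the highest in the table, and the read-count fold was 6272 with a 95% interval of 3044 to 15600 from counting alone. The width of that interval comes from the 7 wild-type reads, for which the exact Poisson interval was 2.81 to 14.4 reads. In the ratio of the authors' deposited table TFF1 stood second, at 6298.

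TFF3, the second trefoil peptide, had a value of 127.85 from 2447 reads in knockout cells, against 3.68 from 61 reads in wild-type cells. Its log2 ratio was 4.78, rank 27 in the table, and its read-count fold 34.7 (26.9 to 45.5). TFF1 was 46.3 times TFF3 in knockout cells and 0.255 times TFF3 in wild-type cells, by expression value. TFF2, the remaining member of the family, was not analysed here.

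S100A14 had a value of 484.5 from 9317 reads in knockout cells, against 1.63 from 27 reads in wild-type cells. Its log2 ratio was 7.53, the fifth highest of the table, with a read-count fold of 298.7 (205.2 to 453.5). By expression value it ranked 38th of the 2046 genes in knockout cells and 1218th in wild-type cells. S100A14 was 1.155 times EPCAM in knockout cells and 0.0112 times EPCAM in wild-type cells.

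EPCAM had a value of 419.58 from 13271 reads in knockout cells, against 145.74 from 3988 reads in wild-type cells. The read-count fold was 2.88 (2.78 to 2.98) and the log2 ratio 1.52. MAL2 had a value of 239.36 from 12504 reads in knockout cells, against 105.63 from 4771 reads in wild-type cells. Its read-count fold was 2.27 (2.19 to 2.35) and its log2 ratio 1.17. SFN had a value of 159.55 from 3852 reads in knockout cells, against 69.09 from 1443 reads in wild-type cells. Its read-count fold was 2.31 (2.17 to 2.46) and its log2 ratio 1.20. All 3 genes already ranked among the most abundant in wild-type cells, at 39th, 58th and 100th, and their positions in knockout cells were 46th, 91st and 152nd, among the listed genes. MAL2 and SFN lay close to the table's own limit of a ratio of 2, with MAL2 nearest to it, and EPCAM lay farther above it.

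**Figure D1:**
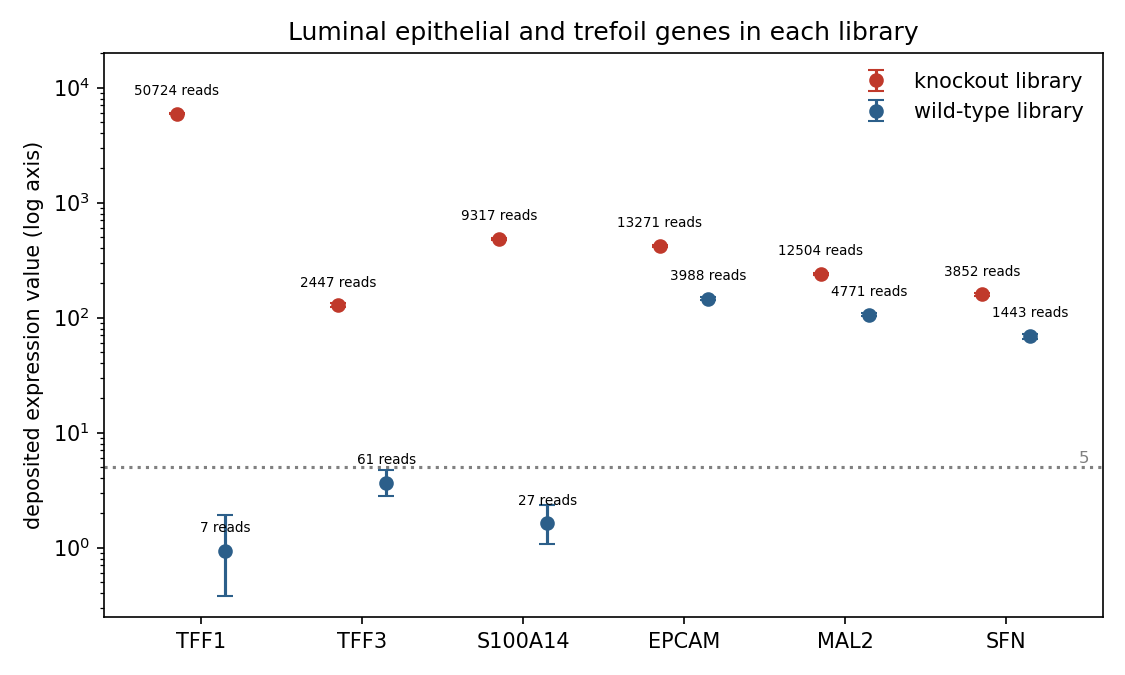
Deposited expression value (log axis) of each of the 6 genes in knockout and wild-type cells, with 1 library per genotype, 95% Poisson counting intervals as bars and the reads behind each point. TFF1, TFF3 and S100A14 lie under the dotted line at 5 in wild-type cells and between 127.85 and 5920.2 in knockout cells. EPCAM, MAL2 and SFN are at 69.09 or more in both. Their direction turns under scalings on the listed genes (MAL2 and SFN under 3, EPCAM under 2). Such scalings take the one-sided choice of genes as a shift, so nothing is read from the turn.

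All 6 genes reached 2-fold on the log2(value + 1) scale, as did 80.6% of the 2046 genes, and 3 of the 6 (TFF1, TFF3 and S100A14) reached 4-fold, as did 21.3%. The lower limit of the counting interval lay above 2 for all 6 and for 76.5% of the genes. Since the table admits only ratios of at least 2, these shares say nothing particular about the 6. The median log2 ratio was 3.15 for the 6 and 1.33 for all genes. Relative to that median of 1.33, TFF1 stood at 10.25, S100A14 at 6.20, TFF3 at 3.46, EPCAM at 0.19, SFN at -0.13 and MAL2 at -0.15 on the log2 scale. Scaling the libraries on the listed genes shifts the median by 1.30 to 1.33, and the direction of MAL2 and SFN then turned under all 3 scalings and that of EPCAM under 2, while TFF1, TFF3 and S100A14 kept 2-fold or more. Such a scaling treats the one-sided choice of genes as a difference between libraries, and the scale of the whole libraries could not be checked here.

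Reads per unit of expression value were 1.151 to 1.161 times as high in knockout as in wild-type cells for all 6 genes. The median of this quantity was 1.155 over the 1133 genes that had 100 or more reads from wild-type cells. The ratio of raw read counts was therefore 1.151 to 1.161 times that of the expression values for the 6 genes. After division by 1.155 the counts and the values gave nearly the same ratio. That factor was taken from these same values and counts, so the agreement is no separate check. Of those 1133 genes, 86.4% lay within 5% of the median.

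The order of the 6 by expression value differed between the libraries. In knockout cells it was TFF1, S100A14, EPCAM, MAL2, SFN and TFF3 from high to low, and the counting intervals of neighbours in this order did not overlap. In wild-type cells it was EPCAM, MAL2, SFN, TFF3, S100A14 and TFF1, and the intervals of S100A14 and TFF1 overlapped (1.07 to 2.37 and 0.378 to 1.94). The intervals do not cover the scaling for gene length, on which the order between genes rests. By reads, MAL2 (4771) lay over EPCAM (3988) in wild-type cells. In knockout cells EPCAM (13271) and MAL2 (12504) lay over S100A14 (9317) by reads. TFF1 made up 80.5% of the summed value of the 6 in knockout cells and 0.29% in wild-type cells. EPCAM made up 5.71% in knockout cells and 44.6% in wild-type cells. MAL2 over SFN was 1.5 in knockout cells and 1.53 in wild-type cells. EPCAM over MAL2 was 1.75 in knockout cells and 1.38 in wild-type cells, and EPCAM over SFN was 2.63 in knockout cells and 2.11 in wild-type cells. The counting interval of the EPCAM fold overlapped neither that of MAL2 nor that of SFN, while those of MAL2 and SFN overlapped. The summed value of TFF1, TFF3 and S100A14 was 7.98 times that of EPCAM, MAL2 and SFN in knockout cells and 0.0195 times in wild-type cells.

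**Figure D2:**
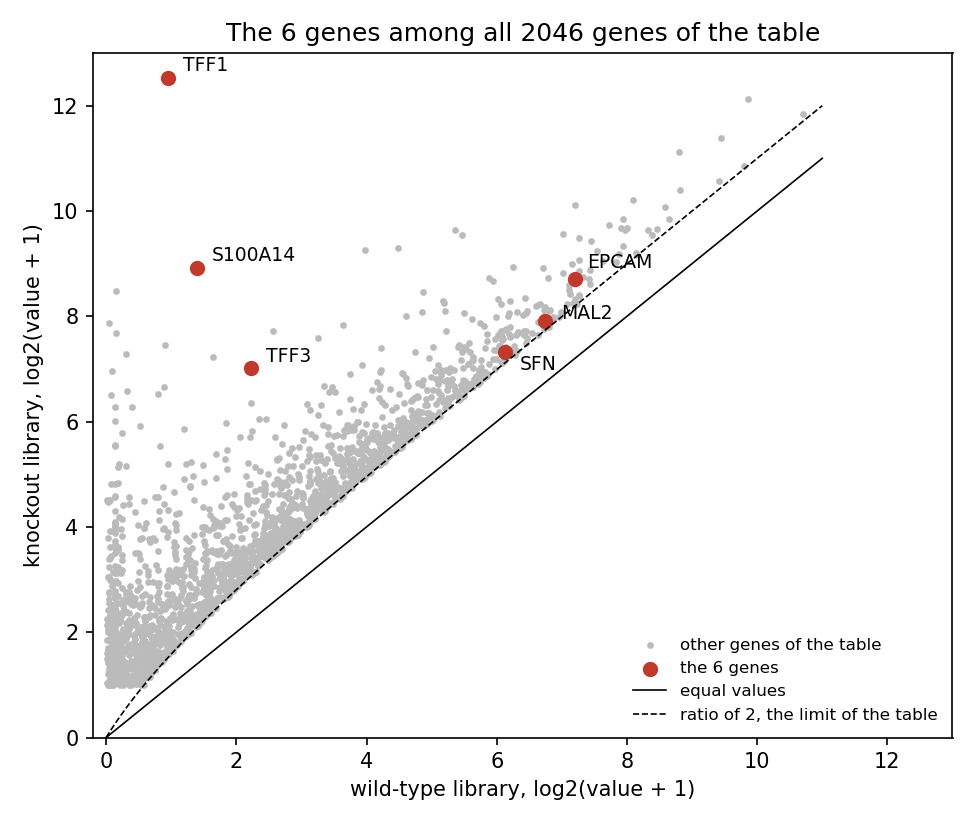
Values of all 2046 genes as log2(value + 1), wild-type library on the horizontal and knockout library on the vertical axis, with the 6 genes in red, equality as a solid line and the table's limit at a ratio of 2 as a dashed line. TFF1, S100A14 and TFF3 stand at the upper left. SFN and MAL2 lie close to the limit, at log2 ratios of 1.20 and 1.17, and EPCAM lies farther above it, at 1.52. All 3 turn in direction under scalings on the listed genes (SFN and MAL2 under 3, EPCAM under 2). Such scalings take the one-sided choice of genes as a shift, so nothing is read from the turn.

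Among the 1221 genes with a wild-type value under 5, the median knockout value was 4.77 and the median ratio 5.17. Of these, 12 reached a knockout value of 100, or 0.587% of all genes, and TFF1, TFF3 and S100A14 were 3 of the 12. Among the 149 genes with a wild-type value of at least 50, ratios ran from 2.0 to 7.54 with a median of 2.49. EPCAM, at a ratio of 2.88, was exceeded by 52 of these genes, SFN, at 2.31, by 95 and MAL2, at 2.27, by 103. The limits of 50 and 100 were chosen after the values were seen.

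The genes closest to each of the 6 were found by Euclidean distance over the log2(value + 1) of both libraries, which are only 2 points for each gene. TFF1 had no near counterpart, and its closest gene was S100A14 at a distance of 3.63. S100A14 was closest to PMP22, a membrane protein of myelin that other cells also make (353.94 in knockout cells against 0.11 in wild-type cells, distance 1.32). TFF3 was closest to SYTL2, which tethers secretory vesicles (148.73 in knockout cells against 2.13 in wild-type cells, distance 0.62), and to RAPH1, a regulator of actin at the cell edge (80.61 in knockout cells against 3.69 in wild-type cells, distance 0.66). EPCAM, MAL2 and SFN each had a neighbour within 0.13. These were TKT, an enzyme of the pentose phosphate pathway, at 426.93 in knockout cells against 159.46 in wild-type cells for EPCAM, PSMB1, a proteasome subunit, at 233.0 in knockout cells against 105.38 in wild-type cells for MAL2, and the kinase AKT1 at 154.06 in knockout cells against 66.96 in wild-type cells for SFN.

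TFF1 and TFF3 lie in the trefoil cluster of chromosome 21, at chr21:42362282-42366594 and chr21:42311667-42315651 (GENCODE 29, GRCh38), with TFF2 between them. Of the 13 other protein-coding genes within 500 kb of TFF1, 6 were in the table, or 46.2%. Over the 1735 genes of the table with at least 5 such neighbours the median share was 14.29%, and 116 of them (6.7%) had a share at least as high as TFF1. One of its 6 is TFF3, itself among the chosen genes, and without it 5 of 12 neighbours (41.7%) were in the table, a share reached by 10.3% of those genes. Closest to TFF1 was TMPRSS3, a membrane serine protease 5.2 kb away, at 3.03 in knockout cells against 0.97 in wild-type cells. ABCG1, a cholesterol exporter beyond TFF3, was at 35.27 in knockout cells against 1.81 in wild-type cells, a read-count fold of 18.6 (15.3 to 22.8). SLC37A1, a sugar phosphate transporter, was at 25.46 in knockout cells against 9.87 in wild-type cells. The other members of the window were RSPH1 and PDE9A, at 4.27 and 1.0 in knockout cells against 1.94 and 0.31 in wild-type cells. Beside TFF3, the highest knockout value among these neighbours was the 35.27 of ABCG1, against 5920.2 for TFF1.

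**Figure D3:**
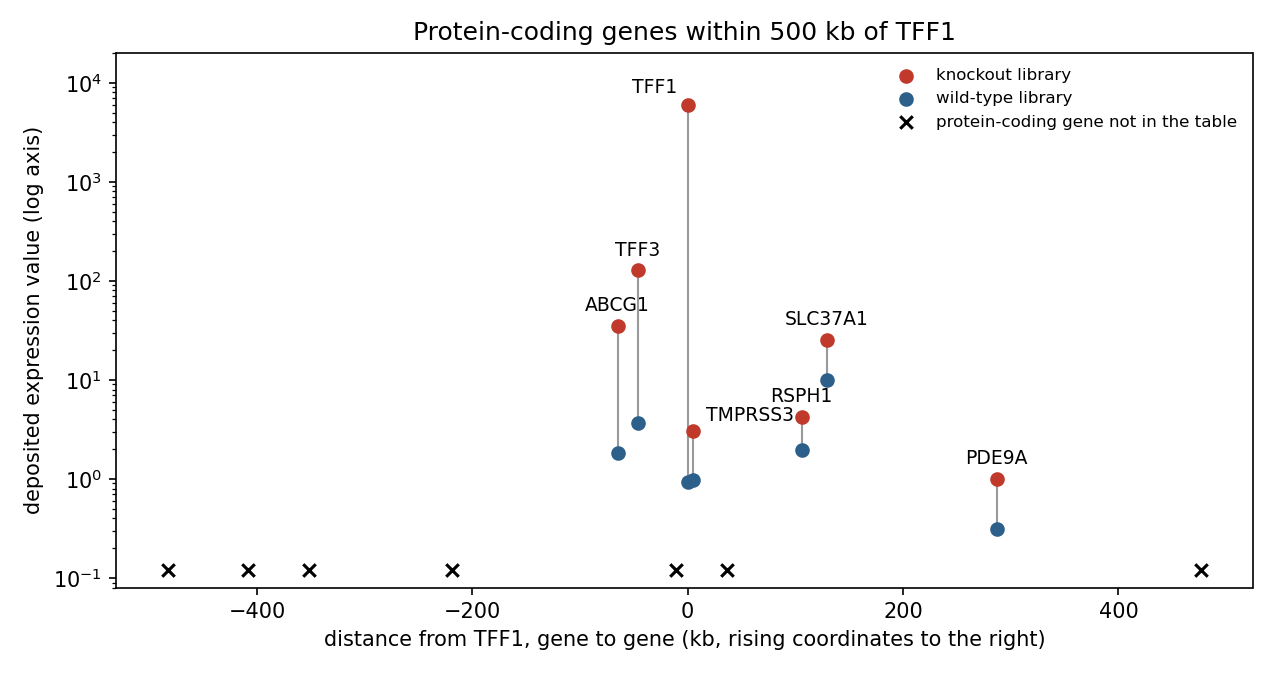
Deposited expression values (log axis) of protein-coding genes within 500 kb of TFF1 against their distance from it in kb, knockout in red and wild type in blue, with crosses for genes that are not in the table and so have no value here. TFF1 and TFF3 have the highest knockout values, 5920.2 and 127.85, and ABCG1 follows at 35.27.

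S100A14 lies in the S100 gene cluster of chromosome 1 (chr1:153614255-153616986, minus strand). Of the 17 S100 family genes taken as a list, 6 were in the table, or 5 of 16 beside S100A14 itself. Being in the table is itself a call of higher in knockout cells, and it held for 10.1% of all 19969 protein-coding genes of GENCODE 29, counted whether expressed or not. S100A7, a psoriasin of stressed squamous epithelium, was at 16.45 from 125 reads in knockout cells against 0.76 from 5 reads in wild-type cells. S100A8 and S100A9, the subunits of calprotectin, were at 37.59 and 60.1 in knockout cells against 5.17 and 27.51 in wild-type cells. S100A13, which lies 1.8 kb from S100A14, was at 145.8 in knockout cells against 62.53 in wild-type cells, with a read-count fold of 2.06 (1.88 to 2.26). S100A12 rested on 12 reads in knockout cells and 0 in wild-type cells, 3.46-fold higher when 3 reads stand for the 0. With the 0 itself kept, the lower counting limit of the fold was 2.41. S100A14 had the highest log2 ratio of these S100 genes (7.53), ahead of S100A7 at 3.31. S100A16, the nearest gene on its other side at 1.1 kb, was not analysed here. Within 500 kb, 16.2% of the protein-coding neighbours of S100A14 were in the table, against the median of 14.29%. The share was 33.3% around EPCAM (chr2:47345158-47387601, plus strand), 20.0% around MAL2 and 15% around SFN (chr1:26863138-26864457, plus strand).

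The upstream sequences of S100A14 and SFN are shown as a nearly silent and an abundant gene of the group that both lie on chromosome 1. They are the 250 bases before the RefSeq start on GRCh38.p14, 5′ to 3′, and RefSeq promoters for the other 4 genes were not used here. S100A14 is at chr1:153616326-153616575 on the minus strand and SFN at chr1:26862899-26863148 on the plus strand. GENCODE 29 places both starts farther upstream, so that all 250 bases of the S100A14 stretch lie within its annotated span and the last 30 in an exon, as do the last 11 bases of the SFN stretch. Capitals mark CAGGTG, the E-box that repressors of the SNAI and ZEB families are known to bind.
S100A14: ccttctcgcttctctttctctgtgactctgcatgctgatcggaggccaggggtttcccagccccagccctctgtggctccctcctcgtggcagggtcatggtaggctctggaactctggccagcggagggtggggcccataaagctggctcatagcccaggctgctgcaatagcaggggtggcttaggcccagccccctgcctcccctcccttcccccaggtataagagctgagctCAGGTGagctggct
SFN: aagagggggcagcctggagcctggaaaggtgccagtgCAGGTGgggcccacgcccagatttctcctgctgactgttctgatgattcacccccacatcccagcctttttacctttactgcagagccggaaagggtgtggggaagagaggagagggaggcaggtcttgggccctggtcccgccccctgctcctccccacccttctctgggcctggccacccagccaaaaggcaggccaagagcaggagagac
CAGGTG was searched on both strands and found at -14 to -9 in S100A14 and at -213 to -208 in SFN, counted from the start. It was present in 17.5% of all 35116 RefSeq promoters of this length and in 18.2% of the 2501 that belong to listed genes, some of which have several starts. The stretch TATAAG, close to the core promoter box that places RNA polymerase and picked after the sequence was seen, lay at -29 to -24 in S100A14. It was present in 5.0% of all promoters, at any position and on either strand. In S100A14 both TATAAG and CAGGTG lie within the last 30 bases, which GENCODE 29 places in an exon. A match describes letters only. SNAI1, a repressor of that kind, was itself in the table at 3.46 in knockout cells against 0.92 in wild-type cells, from 109 reads and 25 reads.

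Genes related to the 6 by family, partner or pathway were taken from 12 lists that hold 151 genes beside the 6 themselves. Of these, 23 were in the table, where 10.1% of all protein-coding genes were. All 23 reached 2-fold, beside the 80.6% of the genes in the table that did, and 7 to 8 of the 23 did so under the 3 scalings. Most lists hold 20 genes or fewer, for which that background gives about 2 genes or fewer, and the counts and zeros below are a description with no test. The genes not in the table were not analysed here.

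The estrogen response list had 4 of 20 genes in the table, or 3 of 19 beside TFF1, against 10.1% of all protein-coding genes. After TFF1 the most abundant was SLC39A6, a zinc transporter known from luminal breast cancer, at 791.92 from 53575 reads in knockout cells against 39.88 from 2336 reads in wild-type cells, with a fold of 19.9 (19.1 to 20.7). SCUBE2, a secreted protein, was at 19.68 in knockout cells against 2.9 in wild-type cells, and the transcription factor MYB at 12.7 in knockout cells against 5.03 in wild-type cells. Of 16 luminal transcription factors and receptors, including ESR1, GATA3 and FOXA1, 0 were in the table, and of 12 markers of luminal breast cells, which exclude the 6, also 0. At 10.1% of all protein-coding genes these zeros describe the table only, and the levels of these genes are not known here.

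The mucous secretion list had 3 of 20 genes in the table, TFF1, TFF3 and MUC5B. Beside the 2 trefoil genes this was 1 of 18, under the 10.1% of all protein-coding genes. MUC5B, a gel-forming mucin, was at 21.84 from 7344 reads in knockout cells against 0.01 from 3 reads in wild-type cells. By reads the fold was 2119 (724.8 to 10280). Of 8 markers of gastric and intestinal epithelium 1 was in the table, beside 10.1% of all protein-coding genes. It was KRT20, at 1.08 from 36 reads in knockout cells against 0.03 from 1 read in wild-type cells. By reads its fold had a counting interval of 5.25 to 1265. None of 8 leukocyte, 7 fibroblast or 6 basal and squamous markers was in the table, where 10.1% of all protein-coding genes leave lists of that size with fewer than 1 gene, and so nothing is read from it.

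Around EPCAM, 2 of 13 genes of the list of partners and claudins were in the table, or 1 of 12 beside EPCAM itself. CD9, a tetraspanin that associates with EPCAM at the membrane, was at 245.71 in knockout cells against 48.36 in wild-type cells, a read-count fold of 5.08 (4.75 to 5.43), beside 2.88 for EPCAM. Of the 6 genes of the MAL list 2 were in the table, or 1 of 5 beside MAL2 itself. Both lists stand beside the 10.1% of all protein-coding genes in the table, and nothing is read from their counts. MALL, a relative of MAL2, was at 5.52 from 246 reads in knockout cells against 0.24 from 9.66 reads in wild-type cells. Thus MALL had the higher fold and MAL2 the higher value in both libraries.

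Among 22 genes of epithelial adhesion and polarity, 4 were in the table. SPINT2, an inhibitor of membrane proteases, was at 360.75 in knockout cells against 137.13 in wild-type cells, and AP1M2, a clathrin adaptor subunit of epithelial sorting, at 129.31 in knockout cells against 48.75 in wild-type cells. Their folds of 2.63 and 2.65 were lower than the 2.88 of EPCAM. The median ratio was 2.49 over the 149 genes with a wild-type value of at least 50, so folds of this size are common among abundant listed genes. PARD6B, a polarity protein, was at 55.34 in knockout cells against 12.04 in wild-type cells, and CDH3, P-cadherin, at 47.61 in knockout cells against 21.86 in wild-type cells. The mesenchymal list had 3 of 17 in the table, with TGFBI, a matrix protein, at 10.18 in knockout cells against 0.42 in wild-type cells, ITGA5, an integrin chain, at 8.66 in knockout cells against 2.79 in wild-type cells, and SNAI1. Both counts stand beside the 10.1% of all protein-coding genes in the table, and nothing is read from them about either list.

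Beside SFN, 1 of 15 other squamous differentiation genes and 4 of 9 other cell cycle targets of p53 were in the table, beside 10.1% of all protein-coding genes. That share counts genes whether expressed or not, and nothing is read from either count. With SFN included, 5 genes of the p53 list reached 2-fold, and 0 did under each of the 3 scalings. For the squamous list these counts were 2 and 1. CSTA, a protease inhibitor of the squamous cell envelope, was at 154.15 from 2295 reads in knockout cells against 0.23 from 3 reads in wild-type cells, a read-count fold of 662.2 (226.3 to 3213). CDKN1A, the cell cycle inhibitor p21, was at 82.26 in knockout cells against 17.92 in wild-type cells, with a fold of 4.55 (4.17 to 4.97), and SESN1, a stress-induced regulator of growth, at 13.36 in knockout cells against 2.3 in wild-type cells. GADD45A and PLK3 were at 6.29 and 2.11 in knockout cells against 1.48 and 0.22 in wild-type cells. SFN had the lowest fold of the 5 and the highest value in both libraries. The other genes of its protein family were not analysed here.

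**Figure D4:**
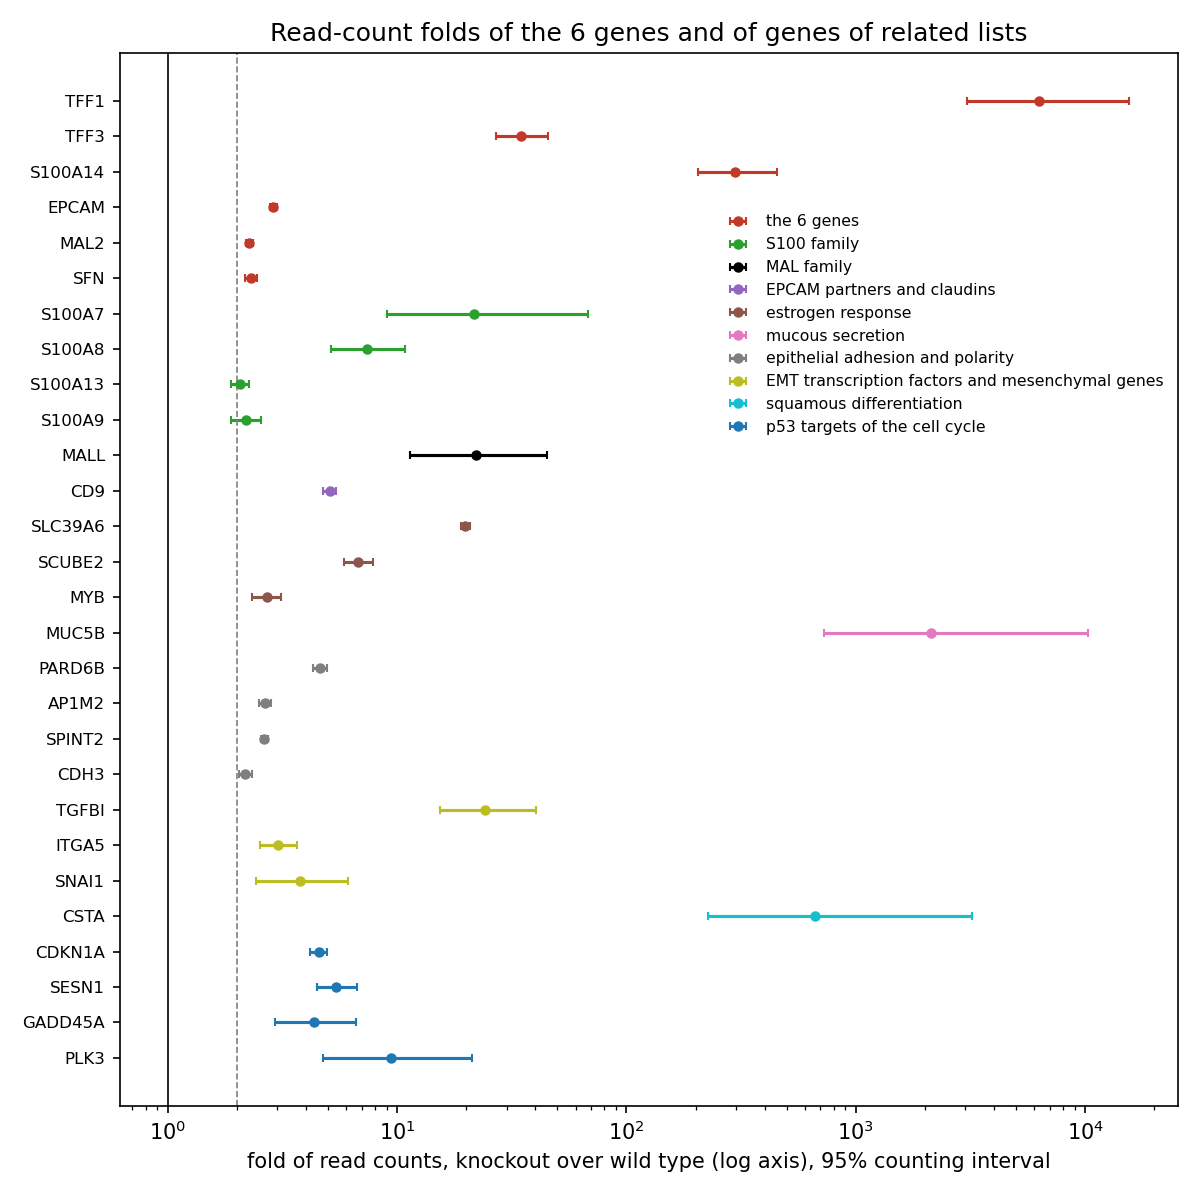
Read-count fold of knockout over wild-type cells (log axis) with 95% counting intervals for the 6 genes and for the genes of related lists that had wild-type reads, coloured by list, with the dashed line at 2. TFF1 (6272), MUC5B (2119), CSTA (662.2) and S100A14 (298.7) stand farthest right, whereas EPCAM, MAL2 and SFN lie at 2.88, 2.27 and 2.31. These 3 turn in direction under scalings on the listed genes (MAL2 and SFN under 3, EPCAM under 2). Such scalings take the one-sided choice of genes as a shift, so nothing is read from the turn. By log2(value + 1) ratio, which is not the fold plotted, MAL2 and SFN lay below the median of all genes and EPCAM 0.19 above it. Of the other genes shown, S100A13, S100A9, MYB, CDH3 and SNAI1 lay below that median, by 0.11 to 0.24.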

How the data were processed

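RNA of 2 MDA-MB-231 cultures was sequenced, 1 per genotype. Per the submitters' processing notes the tools included HISAT2 2.0.4 and CASAVA 1.4, with build GRCh38.p12 and no counter or annotation named. Per the file headers, the authors deposited for each library an expression signal (unit not named) and a read count, used as an expected count because 43.7% of knockout and 40.7% of wild-type values were not whole. The deposited ratio equals knockout over wild type in 2046 of 2046 genes (tolerance 1e-06). Where the wild-type count was 0 the authors wrote a signal of 0.1, in 100 of 100 genes. The deposited log2 columns have crossed headers in 2046 of 2046 genes and were not used, so directions rest on the other headers.

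Log2 ratios were log2((knockout + 1) / (wild type + 1)) on the signal, called by size at 2-fold. All genes passed the filter of 1 in either library. Read-count folds were divided by 1.155, the median reads per signal unit of knockout over wild type, with exact conditional binomial 95% intervals on rounded counts. A floor of 3 reads stood for 0. Intervals were tried only on simulated counts with Poisson error, the error they assume, at folds far under that of TFF1. The simulation therefore does not check them on these data. Reads were not counted by molecular identifier and so are not independent molecules. No test was made, with 1 library a group. Python 3.11.15 and scipy 1.17.1 were used. Coordinates were joined by Entrez number for 2013 genes, and promoters were found for 2 of the 6 genes.

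The 6 genes, the lists and the alternatives were chosen with earlier results of these data known. Named genes were the 6, up to 4 genes of each list with the highest log2 ratio, the 2 nearest in value to each of the 6 and the nearest along the chromosome. Further list members, genes of the TFF1 window, markers and promoter motifs were named after their values were seen.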

Additional observations from a re-analysis of the deposited data

How the results depend on the processing

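With 1 library a group, nothing could be left out. No paired analysis was possible because each genotype has 1 library. All 6 genes stayed at least 2-fold higher with pseudocounts of 0.1 and 5, no filter, a mean of at least 5, the deposited ratio, read counts and the interval limit. Under the 4-fold rule 3 did. The 6 were selected from a table of ratios of at least 2, so their staying is a description and no check. In the order given, the first 7 settings called 2011, 844, 1650, 1117, 2046, 1986 and 1566 of all 2046 genes. Size factors by the median of ratios, totals made equal after leaving out the 50 most abundant genes, and centring on the median each left 3 of the 6. These scalings take the one-sided table as a shift, and in that order they put EPCAM at -0.21, -0.17 and 0.19, MAL2 at -0.55, -0.51 and -0.15, and SFN at -0.52, -0.48 and -0.13 (log2), so 8 of 54 values turned. In the same order, the median log2 ratio of the 6 (3.15) was 1.5, 1.53 and 1.82, the count of all genes (1650) 319, 330 and 279, and the count of list genes (23) 7, 7 and 8. A pseudocount of 5 gave a median of 2.71 and 844 genes, and the 4-fold rule 436 genes and 12 list genes. With a limit of 1 in place of 5, 1 of the 3 nearly silent genes was left. TFF1 ran from 9.96 to 12.62, S100A14 from 6.07 to 8.22 and TFF3 from 3.20 to 5.12. Depth limits TFF1 most, with 7 wild-type reads.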

Other observations

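The following genes were chosen after their values were seen. Beside TFF1, TFF3 and S100A14, 9 genes had a wild-type value under 5 and a knockout value of at least 100. They included SULF2, an extracellular sulfatase, at 204.81 in knockout cells against 0.11 in wild-type cells, BASP1, a membrane-bound signalling protein, at 233.32 in knockout cells against 0.03 in wild-type cells, LXN, a carboxypeptidase inhibitor, at 122.86 in knockout cells against 0.06 in wild-type cells, and BMP7, a bone morphogenetic protein, at 100.3 in knockout cells against 0.85 in wild-type cells. BASP1 and LXN rested on 1 wild-type read each, so their read-count folds had counting intervals of 1229 to 270600 and 390.4 to 86020.

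A few more genes were likewise picked after their values were seen, and form no list. CEACAM6, an adhesion protein of epithelial tumours, was at 7.27 in knockout cells against 1.84 in wild-type cells, with a fold of 3.87 (3.0 to 5.0). CEACAM5 was at 4.62 in knockout cells against 2.1 in wild-type cells, with a fold of 2.20 (1.77 to 2.78), and its log2(value + 1) ratio of 0.86 did not reach the 2-fold call. CLDN9, a claudin, was at 3.51 in knockout cells against 1.43 in wild-type cells, and its log2(value + 1) ratio of 0.89 did not reach that call either. MUCL1, a small mucin-like protein of breast, rested on 43 reads in knockout cells against 7 in wild-type cells, with a fold of 5.32 (2.37 to 14.01). KRTCAP3 was at 12.78 in knockout cells against 0.65 in wild-type cells, with a fold of 20.3 (10.5 to 45.0).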
